A study of Mus musculus with 27 samples.

Results

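The genes of the mitochondrial respiratory chain and ATP synthase were followed while mouse limb bud mesenchymal cells differentiated into cartilage cells. A probe set, the unit an Affymetrix array reports for a transcript, was taken as a member where its annotation named 1 gene only and the current symbol of that gene began with Nduf, Uqcr, Atp5, Cox4, Cox5, Cox6, Cox7 or Cox8, or was Sdha, Sdhb, Sdhc, Sdhd or Cyc1. The rule uses names and no measured value. It gave 147 of the 36701 probe sets that are not controls on the array types A, B and C, and these 147 covered 81 genes. Complex I had 68 probe sets for 39 genes, complex II 7 for 4, complex III 12 for 8, complex IV 34 for 16 and complex V 26 for 14. A further 16 probe sets that named a member among several genes were left out. The rule matched 97 protein-coding genes of the reference annotation, and the 16 without a probe set of their own, among them Atp5b, Atp5g3, Cox4i2, Cox7c, Ndufa4 and Uqcrfs1, were not analysed here.

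Multipotential mesenchymal cells (OH) were compared with chondroprogenitors harvested at day 1 (1D) and with chondroblasts harvested at day 3 (3D), each as 3 RNA samples numbered 1, 3 and 4. Per the labels, cells of every stage derive from the limb's subridge region and were allowed to differentiate in culture, purity was put at 90 to 95% in every group, and fibroblasts were named as the contaminating cells. The sources used here give no strain, genotype, embryonic age or culture medium, and they name no agent or allele for any group. Nothing states that the 3 samples of a group came from separate cultures or animals, so the spread within a group may be technical. The p-values rest on that spread, pooled over the 9 samples of all 3 groups and moderated across probe sets. The samples are bulk RNA, in which fewer cells of a type and less RNA per cell cannot be told apart.

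Oxidative phosphorylation passes electrons from NADH through complex I (NADH dehydrogenase), or from succinate through complex II (succinate dehydrogenase), to complex III (cytochrome bc1) and complex IV (cytochrome c oxidase), and complex V (ATP synthase) uses the resulting proton gradient to make ATP. Most subunits are encoded in the nucleus and are imported, and a few of complexes I, III, IV and V are encoded in mitochondrial DNA and are not among the genes described here. Cartilage is a tissue without blood vessels, and its cells are known for drawing much of their ATP from glycolysis.

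Signals are MAS5 intensities that were rescaled so that the 2% trimmed mean of every array is 500. Probe sets were tested where the mean signal reached 200 in at least 1 group, which 111 of the 147 member probe sets and 23545 of all 36701 did. These 111 covered 77 of the 81 genes. Sdha, Cox6a2, Cox7a1 and Cox8a lay below the filter on all their probe sets, with group means of at most 195. Where a gene had several probe sets, 1 stood for it, with array type A preferred to B and B to C, and the brightest chosen within a type. Log2 changes were taken on log2(signal + 50).

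The cells changed strongly over the 3 stages. Of 14 cartilage markers past the filter, 13 were higher in 3D than in OH, with a median log2 change of 3.10, while Col2a1 and Sox5 lay below the filter. Fibroblast markers had a summed signal of 4567 to 5847 in OH, 6005 to 8006 in 1D and 18891 to 21257 in 3D, and 6 of 8 past the filter were higher in 3D than in OH, whereas Thy1, S100a4 and Fap were below the filter. Erythroid markers summed to 116775 to 254900 in OH, 9261 to 117186 in 1D and 6701 to 19806 in 3D, and 6 of 7 were lower in 3D than in OH. Endothelial markers summed to 2654 to 3295 in OH, 551 to 1259 in 1D and 834 to 1444 in 3D, with 3 of 6 lower in 3D than in OH and with Tek and Tie1 below the filter. In each stage 1 sample stood apart in RNA controls, namely OH replicate 1, 1D replicate 4 and 3D replicate 4. Signals of the 18S rRNA control probes reached 59860 to 99831 there, against 4872 to 16899 elsewhere, and their Gapdh 3' to 5' ratio 0.874 to 1.04, against 0.779 to 0.836. The part of these cell types and of RNA quality in the results on respiratory genes was not tested.

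Most respiratory chain genes changed by less than 1.5-fold in each comparison, 70 of 77 in 1D against OH and 72 of 77 in 3D against 1D (90.9% and 93.5%, beside 72.9% and 82.5% of all genes). At day 3 against mesenchymal cells, 58 of 77 genes (75.3%) changed by less than 1.5-fold, against 64.5% of the 12214 genes tested. For 52 of the 77 (67.5%) the whole 95% interval of the change lay within 2-fold either way, against 39.4% of all genes. At day 1 against mesenchymal cells this held for 62 of 77 (80.5%, against 46.1% of all genes), and at day 3 against day 1 for 63 of 77 (81.8%, against 54.1%). The median log2 change of the 77 genes was 0.00 in 1D against OH, 0.08 in 3D against 1D and 0.05 in 3D against OH, beside -0.02, -0.05 and -0.05 over all genes tested. The 77 member genes, 1 probe set each, also had less spread between samples of a group, with a median SD on the log2 scale of 0.22 in OH, 0.21 in 1D and 0.19 in 3D, against 0.35, 0.28 and 0.29 over all genes tested. They were brighter as well, with a median mean signal of 1943 against 548, and how far brightness narrows the intervals was not tested.

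At day 3 against mesenchymal cells, 12 of the 111 member probe sets passed an adjusted p of 0.05 in limma, 10 higher (6.54% of all probe sets were) and 2 lower (4.03%). Together that is 10.8% of the members, beside a percentage of 10.6 over all 23545 probe sets tested, so the share of changed probe sets among the members was near the background. At day 1 against mesenchymal cells 2 of 111 passed, Ndufc1 higher and Sdhd lower, beside 4.79% of all probe sets, 3.61% higher and 1.18% lower. At day 3 against day 1 a single member probe set passed, beside 1.61% of all and 1.13% higher. It was one of Cox6b2 that was higher and had passed the filter through its day 3 mean alone. In a fit of 3D and 1D alone with the replicate number as a block, 2 of 104 passed, both of Cox6b2, beside 1153 of all probe sets. The same samples fitted without the block gave 1 of 104, beside 470 of all. With the block on all 9 samples 1 of 111 passed, beside 258 of all, against 380 without it. Without adjustment, 31, 14 and 10 member probe sets had a p under 0.05 in these 3 comparisons, in that order, beside 24.5%, 18.6% and 10.8% of all probe sets. Counted by gene, 10 of 77 passed in 3D against OH (13.0%, beside 13.5% of all genes), 2 in 1D against OH (2.6%, beside 5.91%) and 0 in 3D against 1D (beside 2.32%). In 3D against 1D, 7 genes had an unadjusted p under 0.05, and Cox6b2 passed in the fit of 3D and 1D alone with the replicate block. The F test over the 3 stages called 7 of 111 (6.31%, beside 8.95%). The 3 comparisons share samples, so their lists are not independent of each other.

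The count of 12 in 3D against OH rested on the arrays used. It was 7 without OH replicate 1, 6 without OH replicate 3, 19 without OH replicate 4, 6 without 3D replicate 1 and 6 without 3D replicate 3. In the same fits 2052, 1817, 2656, 1457 and 1482 of all probe sets passed, against 2489 with every sample, so the count over all probe sets moved in the same direction. Of the 12 calls, 5 held with every sample left out in turn. Arrays were scanned in 3 batches per array type, and no batch of array type A or B held both 3D and OH samples. With the scan batch as a block the count was 1 (Ndufaf3), beside 1143 of all probe sets, and all 12 kept their direction. The block was a fixed term on array types A and C but a random one on B, where its estimated correlation was 0.043 and all 3D arrays formed a batch of their own, so Ndufaf3, on B, was hardly adjusted. On array types A and B, scan batch and stage cannot be told apart within any batch in this comparison.

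**Figure D1:**
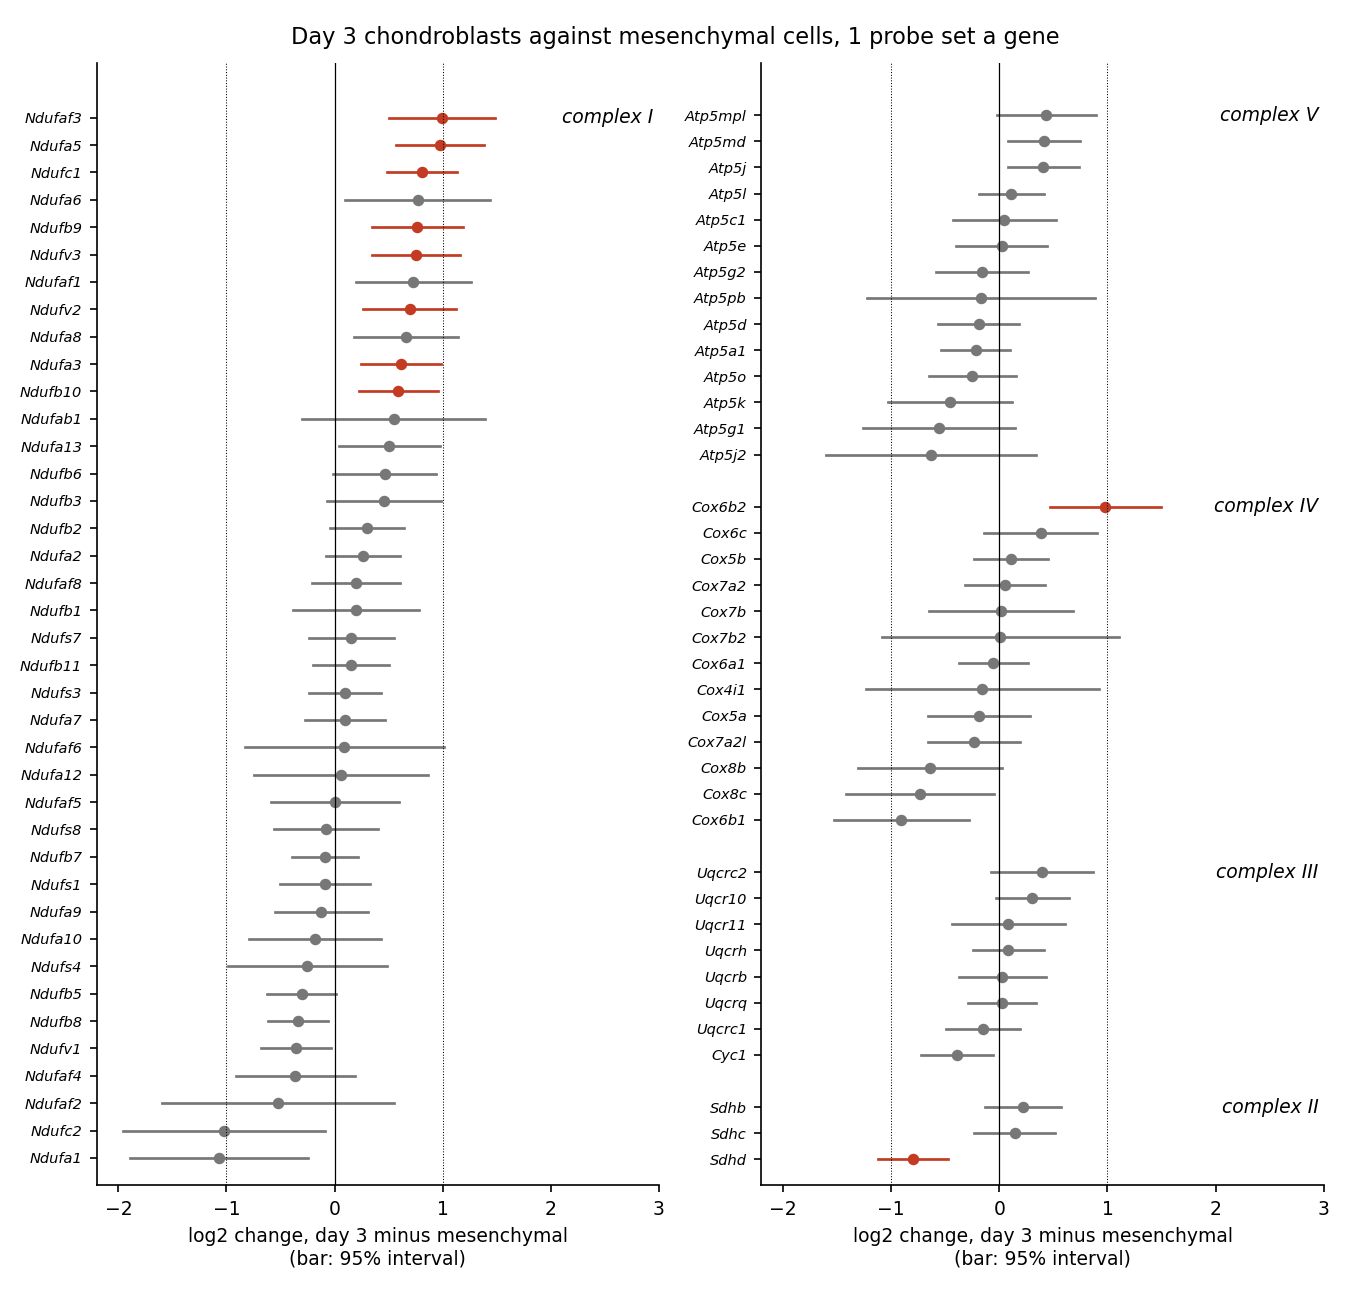
Log2 change in 3D chondroblasts minus OH mesenchymal cells for the 77 genes past the filter, 1 probe set a gene, grouped by complex and ordered by size. Points are limma estimates, bars their 95% intervals, red marks an adjusted p under 0.05, and dotted lines mark 2-fold. Of 39 complex I genes 8 are red and to the right, while complexes III and V have none.

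Of the 9 member genes that were higher in 3D than in OH, 8 belonged to complex I. Among its 39 genes, 8 were higher and 0 lower, beside 8.67% and 4.80% of all genes tested, 26 of 39 had a positive change and the median was 0.15. The 8 were Ndufaf3, Ndufa5, Ndufc1, Ndufb9, Ndufv3, Ndufv2, Ndufa3 and Ndufb10. By class, 6 of 26 supernumerary subunits, 1 of 6 core subunits (Ndufv2) and 1 of 7 assembly factors (Ndufaf3) were among them. No test compared the complexes with each other, since their genes share samples and arrays.

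Ndufaf3, an assembly factor that builds complex I and is not part of the finished enzyme, had signals of 1197, 1227 and 1235 in 3D, against 760.5, 632 and 418 in OH (probe set 109711_at, array type B). All 3 day 3 samples lay above all OH samples and within a narrow band. The change was 1.99-fold (log2 0.99 ± 0.23 SE, adjusted p = 0.0124). In 1D the signals were 1225, 1047 and 912, also above every OH sample, at an adjusted p of 0.0676 against OH. Its call in 3D against OH held in all 22 alternatives, with an adjusted p of 0.0478 at most. The random scan batch block on array type B, which is among the 22, is no check of this call, since batch and stage cannot be told apart there. A second Ndufaf3 probe set, 165817_at on array type C, lay below the filter, with means of 139 in OH, 121 in 1D and 104 in 3D.

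Ndufa5, a supernumerary subunit of the matrix arm, had 3124, 2665 and 2372 in 3D, against 1112, 1254 and 1769.7 in OH (97201_s_at, array type A). The day 1 samples, at 2022, 2125 and 1878, fell between the other stages with no overlap on either side. The change in 3D against OH was 1.96-fold (log2 0.97 ± 0.19 SE, adjusted p = 0.00549), and with the scan batch as a block it was 1.18 on the log2 scale with an adjusted p of 0.0533.

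Ndufc1, a small subunit of the membrane arm, had 2543, 2614 and 2202 in 3D, against 1288, 1528 and 1324 in OH (100628_at, array type A). In 1D it had 2129, 2379 and 2426, so the day 1 and day 3 samples overlapped and both lay above every OH sample. It was 1.65-fold higher in 1D than in OH (log2 0.73 ± 0.15 SE, adjusted p = 0.0154) and 1.75-fold higher in 3D than in OH (log2 0.81 ± 0.15 SE, adjusted p = 0.00424). Within the scan batch of array type A that held 1 day 1 sample and 2 OH samples, the log2 change in 1D against OH was 0.58. The day 1 call was lost without OH replicate 1 (adjusted p = 0.0506) and without 1D replicate 3 (adjusted p = 0.0737). A second Ndufc1 probe set, 167065_at on array type C, had a log2 change of -0.92 in 3D against OH that did not pass (adjusted p = 0.184), with 210.4, 482 and 610.5 in 3D and 823, 899.7 and 694 in OH. The 2 probe sets of Ndufc1 thus gave opposite signs.

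The other 5 complex I genes past the threshold in 3D against OH had smaller margins. Ndufv3, which belongs to the flavoprotein part of the enzyme, had 1002, 1065 and 829.5 in 3D, against 609, 526 and 518 in OH. The 1D signals of 601, 524 and 697 lay with OH and below every 3D sample. Ndufv3 was 1.68-fold higher in 3D than in OH (adjusted p = 0.0225), lost without OH replicate 3, 3D replicate 1 or 3D replicate 3 (adjusted p up to 0.108). Ndufv2, a core subunit that carries an iron-sulfur cluster, had 3667, 3684 and 2946 in 3D, against 1785, 1995 and 2564 in OH. Its 3D samples lay above all OH samples, and 1D samples at 2744, 3407 and 2184 overlapped both. It was 1.62-fold higher (adjusted p = 0.0424), and a second Ndufv2 probe set, 162327_f_at, had a log2 change of -0.02. Ndufb9 had 2400.0, 2483 and 1612 in 3D, against 1146, 1113 and 1462 in OH. The 3D replicate 4 value stood far below the other day 3 samples and still above OH. Ndufb9 was 1.70-fold higher (adjusted p = 0.0254).

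Ndufb10 had 2002, 1798 and 1845 in 3D, against 1170.2, 1053 and 1514 in OH, which did not overlap, and it was 1.51-fold higher (adjusted p = 0.0435). Ndufa3 had 2899.5, 3726 and 2757 in 3D, against 1971, 1839 and 2235 in OH, which did not overlap either, and it was 1.53-fold higher (adjusted p = 0.0399). The other Ndufa3 probe set, 102097_f_at, had a log2 change of -0.47 (adjusted p = 0.423). Ndufb9, Ndufb10 and Ndufa3 are supernumerary subunits. With samples left out in turn, the call held in 5 of 9 fits for Ndufb9, 4 of 9 for Ndufv2 and Ndufa3 and 2 of 9 for Ndufb10, and the largest adjusted p were 0.116, 0.143, 0.172 and 0.152 in the order Ndufb9, Ndufv2, Ndufa3 and Ndufb10. Each of these lost its call without OH replicate 1, OH replicate 3, 3D replicate 1 or 3D replicate 3, and Ndufv2, Ndufa3 and Ndufb10 also without 1D replicate 1. Ndufb10 was lost without 1D replicate 3 or 3D replicate 4 as well. With scaling to the median the adjusted p was 0.0808 for Ndufv2, 0.0630 for Ndufa3 and 0.0821 for Ndufb10, and with the scan batch as a block none of the 5 passed.

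The remaining complex I genes did not pass. The core subunits Ndufs1 and Ndufv1, which carry an electron path from NADH, had log2 changes of -0.09 and -0.35 in 3D against OH. The 3 probe sets of Ndufs1 lay between -0.64 and -0.09, without a call. Ndufs3 and Ndufs8 had 0.10 and -0.08, while a second Ndufs3 probe set, 164416_at, had -1.23 with overlapping groups (adjusted p = 0.157). Ndufab1, the mitochondrial acyl carrier protein, had 953, 1332 and 3063 in OH, 2679, 2693 and 1602 in 1D and 2986, 2879 and 1458 in 3D on 96909_at. In each stage its lowest sample was the one with the highest 18S signal, and the stages overlapped throughout. Its other probe sets had the opposite sign in 3D against OH. Probe set 171118_at had 148, 231 and 174 in 3D, against 333, 712 and 437 in OH, without overlap and without a call (log2 -1.17, adjusted p = 0.147), and 116647_at had -0.99. Among the probe sets that stand for a gene, the largest negative changes of complex I were those of Ndufa1 and Ndufc2, at -1.07 and -1.02 on the log2 scale, with means of 122 and 72.0 in 3D against 316 and 220.4 in OH. Both were tested only because their OH means passed the filter, and their day 3 means lay below it. Their 3D and OH groups overlapped, and neither gene passed the threshold (adjusted p = 0.0987 and 0.163).

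**Figure D2:**
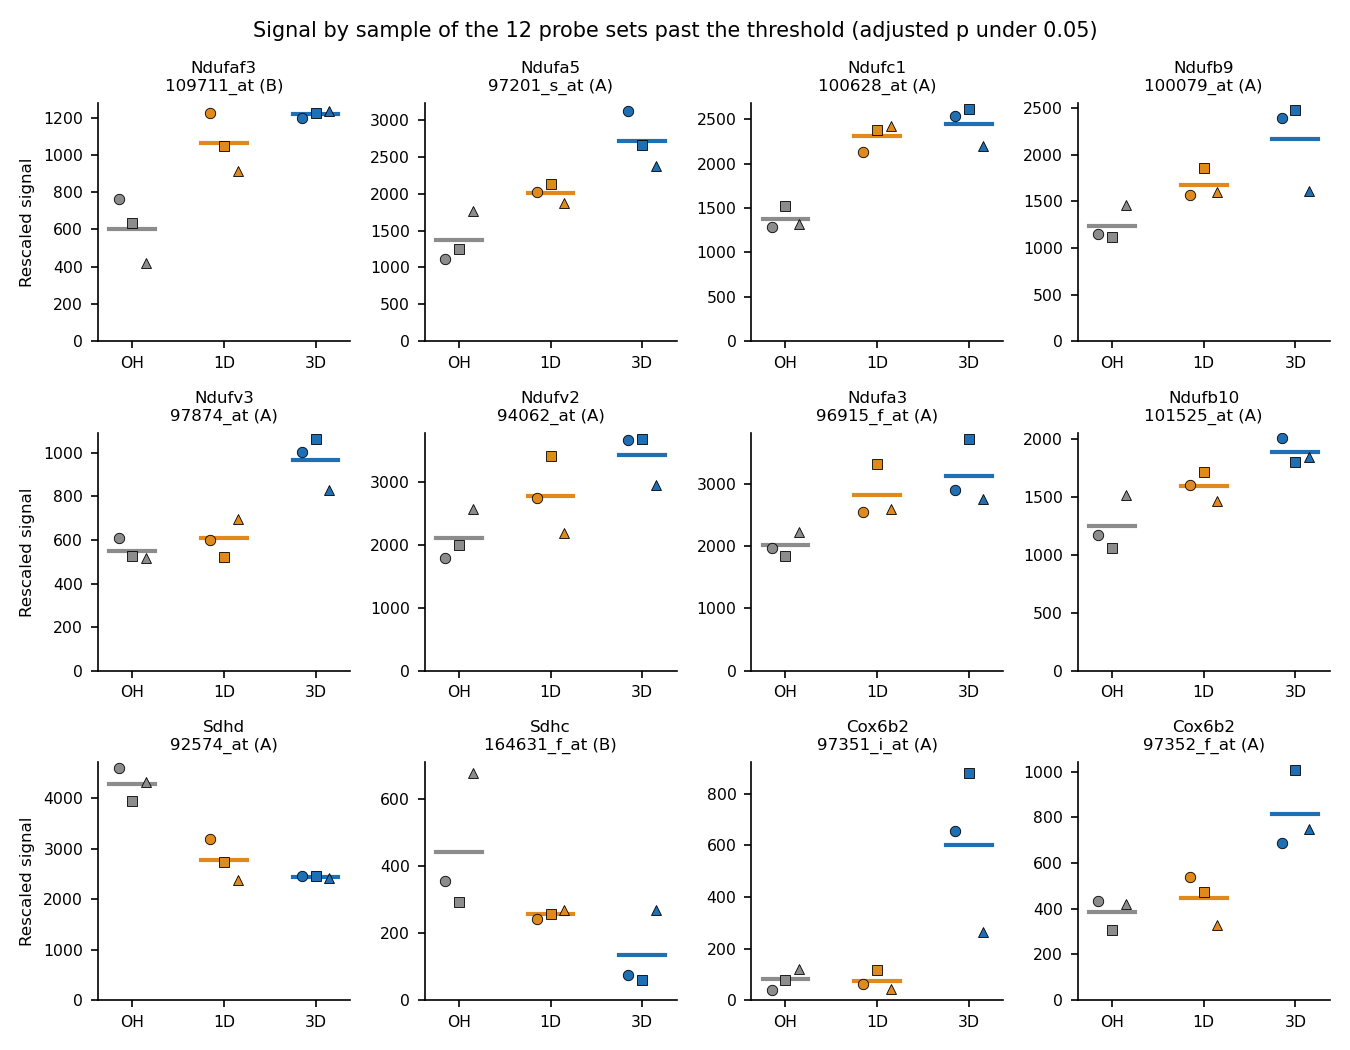
Rescaled signal in each of the 9 samples for the 12 member probe sets with an adjusted p under 0.05 in at least 1 comparison, with the array type in brackets. Bars are group means, and circles, squares and triangles are replicates 1, 3 and 4. The complex I probe sets and Cox6b2 lie higher in 3D than in OH without overlap, and Sdhd and the second Sdhc probe set lie lower.

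Complex II had 1 of 3 genes called, Sdhd, in 1D and in 3D against OH, and 0 in 3D against 1D. Sdhd, an anchor that holds the enzyme in the inner membrane and helps to bind ubiquinone, had 4601, 3939.9 and 4331 in OH, 3197, 2729 and 2387 in 1D and 2453, 2457 and 2422 in 3D (92574_at). All day 1 and day 3 samples lay below every OH sample, and the 3 day 3 samples were nearly equal. Sdhd was 1.55-fold lower in 1D than in OH (log2 -0.63 ± 0.15 SE, adjusted p = 0.0316) and 1.74-fold lower in 3D than in OH (log2 -0.80 ± 0.15 SE, adjusted p = 0.00465). Scaling the arrays to the median gave -0.61 with an adjusted p of 0.130 for 3D against OH, and the scan batch as a block gave -0.47 with 0.375. With single samples left out the day 3 call held in 9 of 9 fits and the day 1 call in 2 of 9, those without 1D replicate 1 and without 3D replicate 4 (adjusted p up to 0.115). The Sdhd probe set on array type C, 169663_at, had a log2 change of 0.03 in 3D against OH, with overlapping groups.

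Sdhc, the other anchor, was represented by 94216_at, with 2379, 2918 and 2392 in 3D against 2190.3, 2450.4 and 2290.0 in OH. These groups overlapped, and the log2 change of 0.14 did not pass. A dimmer Sdhc probe set on array type B, 164631_f_at, fell to 73.7, 61.6 and 268 in 3D, against 354, 294 and 678 in OH (log2 -1.51 ± 0.44 SE, adjusted p = 0.0435), and this call held in 1 of 9 fits with a sample left out. The mean in 3D, 134, lay below the filter, so the size of that change depends on the pseudocount. Sdhb, the iron-sulfur subunit, had log2 changes of 0.22 and 0.03 on its probe sets in 3D against OH, and neither passed. Sdha, the flavoprotein subunit, lay below the filter with means of 191 in OH, 183 in 1D and 179 in 3D.

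Complex III had 0 of 8 genes called by limma in each comparison, and 0, 1 and 1 had an unadjusted p under 0.05 in 1D against OH, 3D against 1D and 3D against OH. All 8 had a 95% interval within 2-fold in each comparison. Its median log2 change was -0.18 in 1D against OH, with 6 of 8 genes negative, 0.26 in 3D against 1D, with 5 of 8 positive, and 0.06 in 3D against OH. The largest change in 3D against 1D was that of Uqcr10, a small subunit, with 2609.7, 2358 and 2506 in 3D, against 1855, 1997 and 1638 in 1D. The groups did not overlap, but the log2 change of 0.44 did not pass (adjusted p = 0.279). Cyc1, which carries electrons to cytochrome c, had the most negative change in 3D against OH among the probe sets that stand for a gene, -0.39, with 5118, 5808 and 4392 in 3D and 5818, 6769 and 7519 in OH (adjusted p = 0.137). The core proteins Uqcrc1 and Uqcrc2 had -0.15 and 0.40, and a second Uqcrc1 probe set, 109802_f_at, had -0.79 without overlap and without a call (adjusted p = 0.203).

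Complex IV had 13 genes past the filter, and its only call was Cox6b2, known as the testis form of a subunit that faces the intermembrane space. Probe set 97351_i_at had 39.1, 80.0 and 122 in OH, 60.8, 117 and 44.5 in 1D and 656, 880.3 and 265 in 3D. All OH and 1D signals lay under the filter and all 3D signals above it, so no fold is given. This probe set was tested only because its day 3 mean passed the filter, so its calls are not independent of its high day 3 signal. On log2(signal + 50) the difference was 2.30 ± 0.43 SE in 3D against 1D (adjusted p = 0.0197) and 2.23 ± 0.43 SE in 3D against OH (adjusted p = 0.00573). Within the scan batch of array type A that held 3 day 3 and 2 day 1 samples, the difference in 3D against 1D was 2.23. That call was lost without 1D replicate 1, 1D replicate 4, 3D replicate 1 or 3D replicate 3 (adjusted p up to 0.131), and the call against OH held without any 1 sample. Probe set 97352_f_at, which represents the gene, had 433, 306 and 419 in OH, 537, 472 and 330.3 in 1D and 686, 1006 and 749 in 3D. The day 3 samples lay above all others, and the change in 3D against OH was 1.97-fold (log2 0.98 ± 0.24 SE, adjusted p = 0.0199), lost without OH replicate 3 (0.0765) or 3D replicate 3 (0.106). In a fit of the 3D and 1D samples alone with the replicate number as a block, both Cox6b2 probe sets passed in 3D against 1D (adjusted p = 0.000718 for 97351_i_at and 0.0287 for 97352_f_at), which made 2 of 104 member probe sets, beside 1153 probe sets in all.

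The remaining Cox6b2 probe sets did not share that pattern. Probe set 160813_r_at had a log2 change of -0.63 and 171262_r_at one of 0.03 in 3D against OH, and neither passed. The suffixes i, f, s and r mark probe sets whose probes may also match other transcripts of a gene family or miss part of the rules for probe choice. Cox6b1, the form found in most tissues, had 192, 232 and 240.4 in 3D, against 529, 580.1 and 309 in OH on 99114_r_at, without overlap and without a call (log2 -0.91, adjusted p = 0.0659).

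The muscle forms Cox6a2 and Cox7a1 lay below the filter, as did the common form Cox8a. Cox8b, known from heart and skeletal muscle, had means of 320.0 in 3D and 510.0 in OH, and Cox8c, known from testis, had 715 in 3D and 1215 in OH, and neither passed (adjusted p = 0.226 and 0.169). Of the skeletal muscle markers, Myf5, Des, Tnnc1, Myh3, Myh8 and Chrna1 lay below the filter, and 1 of the 6 others was higher in 3D than in OH (Actc1), with a median of 0.15. Muscle markers summed to 2830 to 4485 in 3D, against 1452 to 3203 in OH, and their part in the results was not tested. Apart from Cox6b1, given above, the common forms named here showed smaller differences in 3D against OH. Cox5a and Cox5b had log2 changes of -0.19 and 0.10, Cox6a1 -0.06, Cox6c 0.38, Cox7a2 0.05 and Cox7a2l -0.23. A second Cox7a2 probe set had -0.35, the opposite sign, without a call. Cox4i1, the common form of a regulatory subunit, had -0.16, -0.08 and -0.22 on its 3 probe sets. The median of complex IV was -0.16 in 1D against OH, 0.17 in 3D against 1D and -0.06 in 3D against OH, and the last turned to 0.03 with scaling to the median and to 0.06 with the scan batch as a block.

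Complex V had 0 of 14 genes called by limma in each comparison, and 3, 1 and 2 had an unadjusted p under 0.05 in 1D against OH, 3D against 1D and 3D against OH. Its median was -0.18 in 1D against OH, with 10 of 14 negative, 0.08 in 3D against 1D, with 11 of 14 positive, and -0.17 in 3D against OH, which turned to 0.01 with scaling to the median and 0.17 with the scan batch as a block. Atp5a1, the alpha subunit of the catalytic head, had 9189, 7873 and 9946 in OH, 6325, 7585 and 7401 in 1D and 8042, 7375 and 7649 in 3D. Its day 1 and day 3 signals overlapped, and the OH samples lay higher than day 1 (log2 in 1D against OH -0.34, adjusted p = 0.238). Atp5d, the delta subunit of the head, had 834, 696 and 854 in 1D, against 1301, 993 and 1245 in OH on its representative probe set (log2 -0.54, adjusted p = 0.104), and its 4 probe sets past the filter lay between -0.54 and 0.27 in that comparison. Of the c ring, through which protons turn the enzyme, Atp5g1 and Atp5g2 had -0.56 and -0.16 in 3D against OH. Atp5j and Atp5md, of the peripheral stalk and the membrane part, had 0.41 each, with all 3D signals above all OH signals and adjusted p of 0.112 and 0.110. Atpif1, the inhibitor of ATP synthase, which the rule does not include, had 4669, 4759.5 and 3693 in 3D, against 4339, 4376 and 4586 in OH, a log2 change of -0.03.

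The medians of the complexes were also taken in each sample. Relative to the mean of the OH samples, the median of complex I was -0.04, -0.05 and 0.08 in OH, 0.18, 0.12 and 0.06 in 1D and 0.28, 0.22 and 0.03 in 3D. Complex III had its low point at day 1, with -0.12, -0.11 and -0.27 in 1D, against -0.01, -0.08 and 0.11 in OH. The day 1 samples of complex III lay below all OH samples, while those of complex I overlapped OH. Complex IV had -0.29, -0.11 and -0.18 in 1D, against 0.10, -0.08 and 0.12 in OH, also without overlap. Complex II rested on 3 genes and its median in 1D against OH was 0.33, but -0.10 when the probe sets of a gene were averaged. Scaling to the median moved the median of all probe sets in 1D against OH to 0.08, beside -0.05, and in 3D against OH to 0.02, beside -0.08. In 1D against OH it gave 0.24 for complex I, -0.05 for complex III and -0.04 for complex IV.

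**Figure D3:**
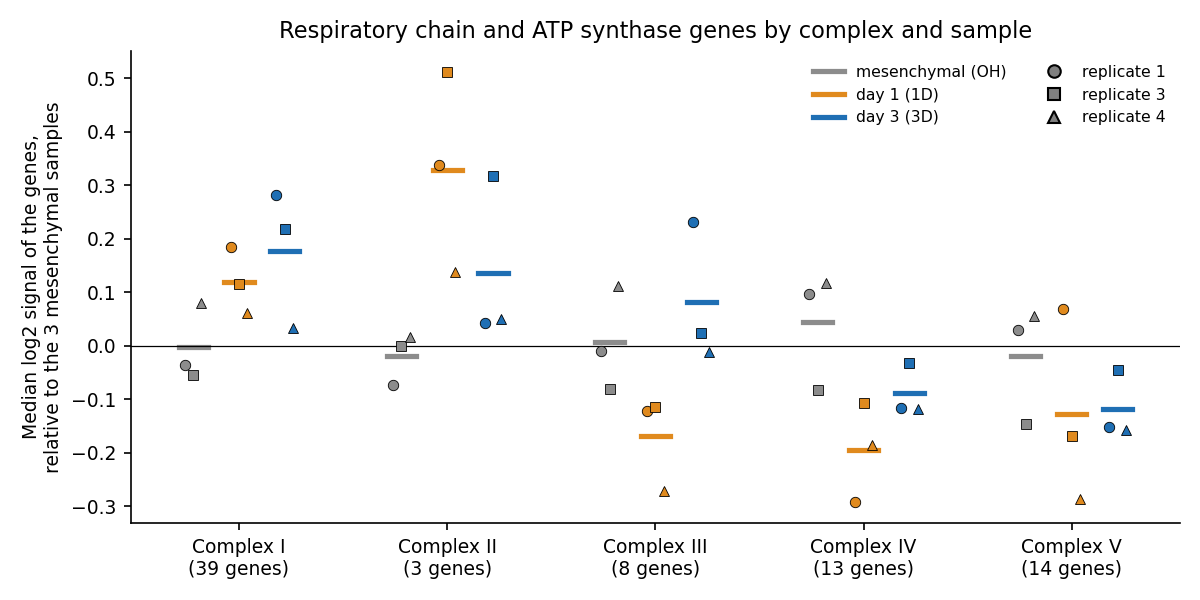
Median log2 signal of the genes of each complex in each sample, relative to the mean of the 3 OH samples of each gene, with bars for the mean of a stage. Complex I is higher in 1D and 3D than in OH on average and complexes III and IV have all 1D samples below all OH samples. In 3D against OH the medians of complexes IV and V turn positive with scaling to the median or with the scan batch as a block.

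Of the 25 genes with 2 or more probe sets past the filter, all probe sets of a gene agreed in sign for 12 in 1D against OH, 9 in 3D against 1D and 13 in 3D against OH. The share over all genes is not given here, so these counts are not read as a trait of the members. Groups did not overlap for 31 of the 111 member probe sets in 3D against OH (27.9%, beside 27.6% of all probe sets), 18 higher and 13 lower. In 1D against OH this held for 24 (21.6%, beside 23.3%), 8 higher and 16 lower, where all probe sets divided almost evenly, 11.8% higher and 11.5% lower. In 3D against 1D it held for 16 (14.4%, beside 18.6%), 13 higher and 3 lower, where all probe sets divided into 9.04% higher and 9.51% lower. Among the members without overlap, more were lower than higher in 1D against OH, and more were higher than lower in 3D against 1D. Both counts use the same 1D samples, so they are not separate observations. The shares of members without overlap in these 2 comparisons lay below those of all probe sets, and the imbalance in direction was not tested.

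In chondroblasts against mesenchymal cells, the calls of Ndufa5, Ndufc1, Ndufaf3, Sdhd and Cox6b2 (97351_i_at) held with every sample left out in turn. With the scan batch as a block only that of Ndufaf3 was kept, and the block is no check of it. The call of Sdhd was also lost with scaling to the median. Ndufc1, Sdhd and Cox6b2 each had another probe set that did not pass in this comparison. Promoters of these genes are printed to show what the genes share or do not share upstream. Each is the 150 bases before the annotated start farthest upstream, from RefSeq on GRCm38.p6, all on the minus strand, at chr6:24527691-24527840 for Ndufa5, chr3:51408956-51409105 for Ndufc1, chr9:108567437-108567586 for Ndufaf3, chr9:50603850-50603999 for Sdhd and chr7:4753095-4753244 for Cox6b2. Capitals mark the motif of nuclear respiratory factor 1 (GCGCA, then any base, then GCGC) and CCGGAAG, the core bound by ETS factors such as GABP, on either strand. Both factors are known regulators of nuclear genes for the respiratory chain.
Ndufa5: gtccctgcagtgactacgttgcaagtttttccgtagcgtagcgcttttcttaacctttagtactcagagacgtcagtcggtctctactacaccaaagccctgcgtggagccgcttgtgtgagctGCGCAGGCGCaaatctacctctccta
Ndufc1: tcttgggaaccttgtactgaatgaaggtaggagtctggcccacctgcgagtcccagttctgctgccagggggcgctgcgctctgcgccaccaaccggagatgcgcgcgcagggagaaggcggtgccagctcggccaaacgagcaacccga
Ndufaf3: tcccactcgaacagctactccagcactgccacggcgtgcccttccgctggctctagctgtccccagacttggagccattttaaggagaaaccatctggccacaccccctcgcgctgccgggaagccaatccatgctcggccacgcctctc
Sdhd: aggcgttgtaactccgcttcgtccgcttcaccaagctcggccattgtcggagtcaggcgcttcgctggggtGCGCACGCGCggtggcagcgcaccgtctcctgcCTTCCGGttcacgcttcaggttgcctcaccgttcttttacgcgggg
Cox6b2: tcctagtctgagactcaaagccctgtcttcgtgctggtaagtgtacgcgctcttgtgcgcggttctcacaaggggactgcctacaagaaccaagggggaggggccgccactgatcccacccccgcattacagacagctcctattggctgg
Ndufa5 held the NRF1 motif at -26 to -17 before its start, and Sdhd held it at -79 to -70 with an ETS core at -46 to -40. The stretches of Ndufc1, Ndufaf3 and Cox6b2 held neither.

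The table of promoters held 300-base windows (250 bases before and 50 after a start) for 66 of the 81 genes. Of these, 13 (19.7%) held the NRF1 motif and 18 (27.3%) the ETS core, beside 7.17% and 12.9% of 17492 protein-coding genes, and neither motif contains the other. At least 1 of the motifs was found in 28 of the 66 genes (42.4%), beside 18.6% of all protein-coding genes. By complex, 1 or both motifs were found in 11 of 35 genes of complex I, 3 of 3 of complex II, 3 of 4 of complex III, 3 of 12 of complex IV and 8 of 12 of complex V. Of the 7 complex I genes that were higher in 3D than in OH and had a window, Ndufa5 held the NRF1 motif and none held the ETS core, while 10 of the 28 uncalled genes (35.7%) held at least 1 of them. Nrf1 itself, on array type B, had 1326, 1502 and 1132 in 3D, against 2263, 2208 and 2355 in OH, without overlap. It was 1.71-fold lower in 3D than in OH (adjusted p = 0.0130). Gabpa, the DNA-binding subunit of GABP, fell to 344, 299 and 187 in 3D, against 518, 433 and 928 in OH (2.02-fold lower, adjusted p = 0.0475). A match of letters is not a binding site, and no test related motifs to levels.

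Genes around the respiratory chain were taken list by list, beside 5.91% of all genes called in 1D against OH and 13.5% in 3D against OH. Of 39 assembly and cofactor genes outside the members, Uqcc1 and Coa3, which help to build complexes III and IV, were higher in 1D and in 3D than in OH, and Cox10, which makes heme for complex IV, was lower in 3D than in OH. Uqcc1 had 131, 119.7 and 81.4 in OH, 476, 753 and 500.5 in 1D and 633, 379 and 478 in 3D. Its day 1 and day 3 signals lay far above every OH signal, all of which were below the filter (adjusted p = 0.00103 in 1D and 0.00113 in 3D against OH). Uqcc1 was tested only because its day 1 and day 3 means passed the filter, so these calls are not independent of its high signals there. Coa3 was 1.78-fold higher in 1D than in OH (adjusted p = 0.00689), and Cox10 1.54-fold lower in 3D than in OH (adjusted p = 0.0360).

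Of 19 genes of the tricarboxylic acid cycle and pyruvate dehydrogenase, Idh2, which makes NADPH in mitochondria, was higher in 1D (2.08-fold, adjusted p = 0.00283) and in 3D (1.74-fold, adjusted p = 0.00843) than in OH, and Suclg2 was lower in 3D than in OH (1.65-fold, adjusted p = 0.0298). Of 15 genes of mitochondrial biogenesis and mitochondrial DNA transcription, 2 were lower in 3D than in OH, the factors Nrf1 and Gabpa given above, and the median was -0.34. Of 67 mitochondrial ribosomal protein genes, Mrpl17 was higher and Mrpl9 lower in 3D than in OH, with a median of -0.03. The 5 pyruvate dehydrogenase kinases and phosphatases past the filter gave no call.

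Of 11 mitochondrial carriers and porins past the filter, 2 were higher and 1 lower in 3D than in OH, beside 8.67% and 4.8% of all genes. The ADP/ATP carriers, which exchange the product of ATP synthase for ADP, divided by isoform. Slc25a4 had 8918, 10100.5 and 8535 in 3D, against 6010.4, 5556 and 6047 in OH (1.56-fold higher, adjusted p = 0.0135). Slc25a5 had 1013, 1008 and 1086 in 3D, against 1802, 1737 and 1542 in OH (1.60-fold lower, adjusted p = 0.0260). Neither pair of groups overlapped. Slc25a11, the oxoglutarate carrier, was 1.78-fold higher in 1D and 2.03-fold higher in 3D than in OH (adjusted p = 0.0278 and 0.00484).

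Glycolysis had its lowest summed signal at day 1. The 16 genes for glycolysis and lactate past the filter summed to 50013 to 66702 in OH, 36832 to 47345 in 1D and 54768 to 73789 in 3D. In 1D against OH, 1 was higher (Ldhb) and 1 lower (Pkm), with a median of -0.34 and 5 of 16 positive. Of the 16, 4 were higher and 1 lower in 3D than in 1D, with a median of 0.35, beside 2.32% of all genes. Ldha, which makes lactate, had 11025, 15961 and 11996 in 3D, against 6764, 6789 and 4749 in 1D (2.12-fold higher, adjusted p = 0.0150). Pgk1 was 1.84-fold higher (adjusted p = 0.0218), the lactate exporter Slc16a3 2.45-fold higher (adjusted p = 0.0266), and Ldhb 1.96-fold lower (adjusted p = 0.0296). Against OH the same list had 1 higher and 0 lower in 3D.

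**Figure D4:**
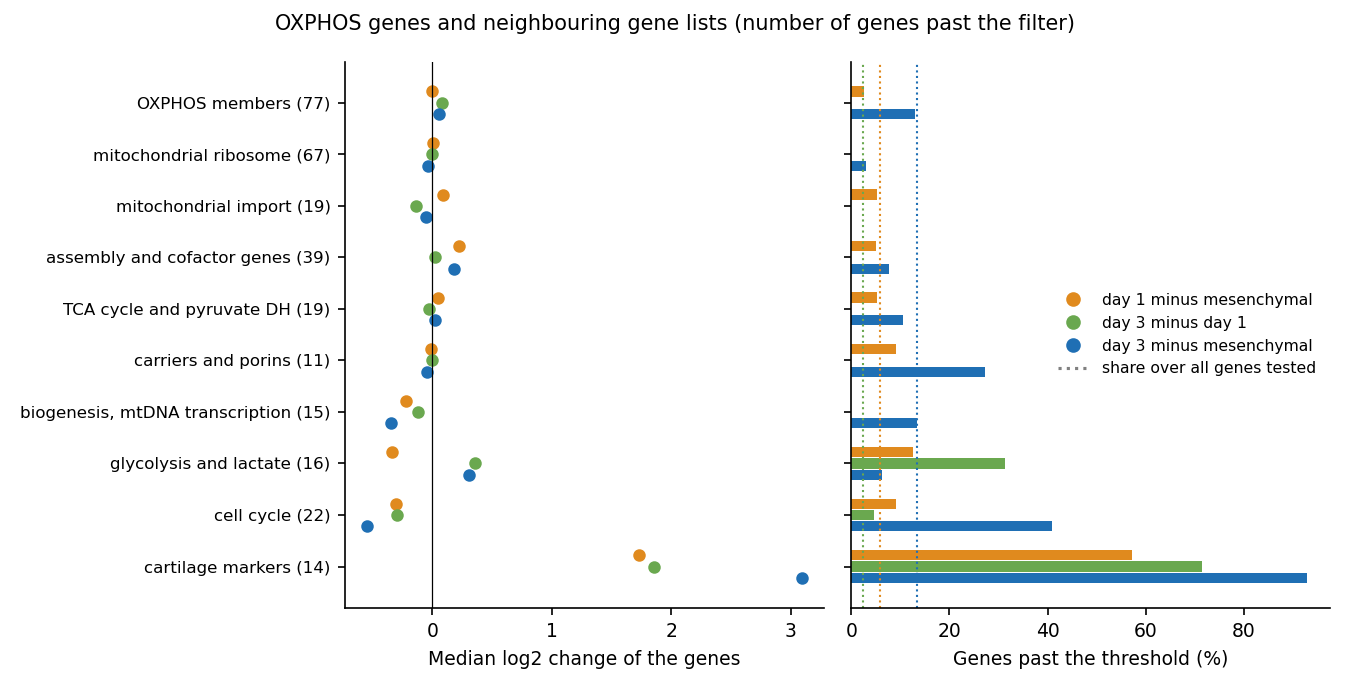
Left, median log2 change of the OXPHOS genes and of neighbouring lists in the 3 comparisons; right, percentage of their genes with an adjusted p under 0.05, with dotted lines at the share over all genes tested (5.91, 2.32 and 13.5%). OXPHOS medians stay near 0 in all 3, and of the 16 glycolysis genes 5 pass in 3D against 1D, where 0 of the 77 OXPHOS genes do in the fit of all 3 stages. Cox6b2 passes there in a fit of 3D and 1D alone with the replicate block.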

How the data were processed

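RNA from 9 samples (3 per stage) was hybridised to 3 array types each, 27 arrays in all. The deposited values are probe set signals, intensities on a linear scale made with MAS5 per the submitters' processing notes (version and settings: not given in the sources used here). Arrays as deposited had a 2% trimmed mean near 1501. Rescaling set that mean to 500 on every array, control probe sets were left out, and log2(signal + 50) was fitted per array type with limma 3.58.1 in R 4.3.3 (lmFit, eBayes with a trend) over all 3 stages. P-values were adjusted (Benjamini-Hochberg) jointly for the 3 array types, 23545 probe sets past the filter. The number of arrays limits the precision of all values. The script was tested on simulated data.

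Of the 36701 probe sets, 29131 were annotated to 1 gene, 724 to several and 6846 to none, and 29044 symbols were updated through the gene identifier. The members and lists were chosen with earlier results of these data known. Genes chosen to be named were those past 0.05 in a comparison, the 2 with the largest change per complex and comparison, and isoform families and enzyme subunits listed by name. Genes whose probe sets differ in sign, and up to 3 genes of each neighbouring list, were chosen too. Some further members were chosen after their values were seen. Not all are described in the text. Ndufa12, Cox7b2, Uqcr11, Uqcrh, Atp5j2 and Atp5k, among the largest changes of their complexes, are not. Nor are Atp5l, Ndufa6, Ndufa9, Ndufb2 and Ndufb8, whose probe sets differ in sign. Ndufa12 had the largest change of complex I in 3D against 1D (log2 0.63, adjusted p = 0.62 in limma). Changes of complex V in 3D against OH ran from -0.63 to 0.44.

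Same-numbered samples of 1D and 3D had positive correlations of their deviations from the stage means (0.11, 0.13 and 0.25). Unlike-numbered pairs of 1D and 3D ran from -0.18 to 0.08. Unlike-numbered pairs with OH ran from -0.15 to 0.24, with 0.20 and 0.24 between OH replicate 1 and replicate 4 of 1D and 3D. The 0.25 joins 1D replicate 4 and 3D replicate 4, and these 3 samples are those that stood apart in RNA controls. Whether replicate number or RNA quality underlies these correlations was not tested. The reported values come from the fit of all 3 stages without a block, and a fit of 1D and 3D alone with the number as a block is given beside them where it changes a call. Same-numbered samples of OH had correlations of -0.14, 0.04 and -0.17 with 1D and of -0.15, 0.06 and -0.20 with 3D. The alternatives were other pseudocounts, filters, scalings, blocks, weights and sample subsets.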

Additional observations from a re-analysis of the deposited data

How the results depend on the processing

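Of 3257 log2 changes of named genes under the alternatives, 3140 lay on the same side of the threshold as reported, 94 no longer passed and 23 newly passed. A sign other than the reported one appeared in 91, of which 0 had passed as reported, 16 with the scan batch as a block and 10 with scaling to the median, where Cox6a1 in 3D against OH had 0.13 beside -0.06. With the replicate block on all 9 samples, 1 member probe set passed in 1D against OH (911 of all, beside 1128) and 1 in 3D against 1D (258, beside 380). In 3D against OH 7 passed (1998, beside 2489), and 4 in the F test (1678, beside 2107). With the 3D and 1D samples fitted alone, 2 of 104 passed with the block (1153 of all) and 1 of 104 without it (470 of all). The causes of these and the following differences were not tested. The scan batch as a block gave 0, 0, 1 and 1 in 1D against OH, 3D against 1D, 3D against OH and the F test (683, 278, 1143 and 1093 of all), and array weights gave 6, 4, 28 and 24 (2005, 1131, 4246 and 3957 of all). Without a trend, 1 passed in 1D against OH (868 of all) and 4 in the F test (1756 of all). Leaving out the samples with high 18S signal, or fitting 2 groups alone, gave 1 in 1D against OH. Without suffixed probe sets, 68 were tested, of which 0 passed in 3D against 1D, 7 in 3D against OH and 4 in the F test. Leaving out single samples gave 0 to 3 in 1D against OH, 0 to 1 in 3D against 1D, 6 to 19 in 3D against OH and 2 to 9 in the F test.

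Complex medians that moved by more than the replicate spread were as follows. In 1D against OH, scaling to the median gave 0.24 for complex I, -0.054 for III and -0.036 for IV. Complex II gave 0.18 with no filter, -0.0095 without suffixed probe sets and -0.10 with the mean of a gene's probe sets. Complex IV gave -0.29 with no filter and -0.27 with the scan batch as a block or with array weights, and complex V gave -0.051 without the high 18S samples. In 3D against 1D, complex IV gave 0.065 with the scan batch as a block and 0.059 without suffixed probe sets. In 3D against OH, scaling to the median gave 0.30, 0.33, 0.24, 0.033 and 0.011 for complexes I to V. The mean of probe sets gave -0.38 for II and -0.15 for IV, and complex III gave 0.18 with array weights or without the high 18S samples. Complex IV gave 0.064 with the scan batch as a block and -0.16 without suffixed probe sets, and complex V gave 0.17 with the scan batch as a block and -0.027 without the high 18S samples. With single samples left out, complexes I to V lay at 0.09 to 0.13, 0.031 to 0.33, -0.22 to -0.09, -0.39 to -0.16 and -0.24 to -0.13 in 1D against OH. In 3D against 1D they lay at 0.036 to 0.16, -0.24 to -0.11, 0.16 to 0.28, 0.057 to 0.29 and 0.05 to 0.19, and in 3D against OH at 0.14 to 0.23, -0.047 to 0.19, -0.065 to 0.14, -0.16 to -0.0065 and -0.17 to -0.06. Within the scan batch of array type A shared by 1 sample of 1D and 2 of OH, the complexes had 0.33, 0.38, -0.09, -0.27 and 0.05. Within that shared by 3 samples of 3D and 2 of 1D they had 0.05, -0.11, 0.16, 0.06 and 0.20.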

Other observations

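Other mitochondrial lists are set beside 5.91% of all genes called in 1D against OH and 13.5% in 3D against OH. Of 19 import genes, Pam16, a part of the motor that pulls proteins into the matrix, was higher in 1D than in OH (log2 1.88, adjusted p = 0.00534 in limma), and 0 passed in 3D against OH. Of 8 antioxidant enzymes, Gpx1, which removes peroxides, was lower in 3D than in OH (log2 -0.80, adjusted p = 0.0449). Cycs, the carrier of electrons between complexes III and IV, had 260.2, 270.4 and 192 in 3D, against 383, 310.1 and 368 in OH.

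Of 22 cell cycle genes, 9 were lower and 0 higher in 3D than in OH, with a median log2 change of -0.55. Of 38 cytosolic ribosomal protein genes, 1 was lower in 1D than in OH and 0 passed in 3D against OH, with medians of -0.25 and -0.26.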
